A study of Anguilla anguilla with 24 samples.

Results

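Sterol synthesis enzymes were followed by RNA sequencing in 2 tissues, liver and brain, of the European eel (Anguilla anguilla) after gold nanoparticles had been given by the trophic route, that is, through food. The set held the contigs, assembled transcript sequences, whose label was exactly idi1, pmvk, fdft1, lss, msmo1, sc5d, ebp or dhcr7 once the prefix and the copy number were removed. This gave 10 contigs of 50640 in the table, for 8 labels of 42176. The labels pmvk and fdft1 had 2 contigs each (written pmvk.1.2, pmvk.2.2, fdft1.1.2 and fdft1.2.2), and the other labels had 1. All 10 contigs passed the filter on low counts in both tissues. The members were matched by name, and the names were chosen with earlier results of these data known. There were 4 groups of 6 libraries, the livers and the brains of control and of gold-fed eels. Eels 1 to 6 were kept under control conditions (NP0), with 0 days of exposure listed. Eels 7 to 12 were exposed over 21 days (NP1, called gold-fed here). How long the control eels were held is not stated here. Each eel gave 1 liver and 1 brain library. The labels give no strain, sex, age, particle size or dose, and they give no tanks, so a p-value here reflects how much single eels differed and not how tanks did.

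Cholesterol is made from acetyl-CoA through mevalonate, isoprenoid units, squalene and lanosterol, and the later enzymes sit in the membrane of the endoplasmic reticulum. In mammals the genes of this route are switched on together by the transcription factor SREBP2 when membrane sterol is low, and the liver is a main site of synthesis for the rest of the body. The brain, separated by the blood-brain barrier, makes its own cholesterol, much of it for myelin. Enzyme roles given below are those known from mammals.

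Totals of counted reads ran from 50.3 to 116 M (mega) per library, and the 10 contigs took 0.00865% to 0.126% of them. Levels below are CPM, counts scaled to a library of 1 M reads, with TMM factors set within a tissue, and they are compared between libraries and never between genes, since contig lengths were not used. The tissue labels were checked against markers. In control eels 45 of 46 hepatocyte contigs were higher in liver and 32 of 32 neuron contigs were higher in brain at an adjusted p below 0.05 with edgeR. In bulk tissue, fewer cells of a type and less RNA per cell cannot be told apart.

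In the liver, the sterol enzymes stood higher in the gold-fed group for all 10 contigs, by 1.51 on the log2 scale at the median, but no contig passed the test after adjustment. Much of the difference came with 1 animal, eel 11, which had the highest value of the 12 livers for every one of the 8 labels. Without eel 11 the median difference was 0.59 on the log2 scale, and 9 of 10 contigs were still higher. The largest difference was that of msmo1 and the smallest was that of pmvk.2.2. Over all contigs tested the median was 0.02, and 52.1% were higher in gold-fed livers.

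The test was edgeR's quasi-likelihood test over 41793 contigs, of which 0 passed an adjusted p of 0.05 (0%), 3512 had an unadjusted p below 0.05, limma-voom called 0 and DESeq2 called 289. None of the 10 sterol contigs was among the calls of DESeq2, whose smallest adjusted p for them was 0.0869, for msmo1, while fdft1.1.2 was given no adjusted p. At an unadjusted p below 0.05, 7 of the 10 were higher in gold-fed livers, against 4.41% of all contigs. Without eel 11 the count was 3 of 10, namely both fdft1 contigs and lss, against 3.89% of all contigs. Most of the 10 contigs varied together among these livers, so such counts are not counts of independent results.

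The early enzyme of the set, phosphomevalonate kinase (pmvk), which phosphorylates phosphomevalonate, had the smallest group difference of the 8 labels. Its summed level was 2.33, 2.86 and 4.09 CPM (lowest, median, highest) in control livers and 1.95, 2.67 and 6.58 CPM in gold-fed livers. Eel 11 held the highest value, the next 5 gold-fed livers lay below the highest control, and 2 lay below the lowest control. The log2 fold change of the sum was 0.09 (SE 0.28, adjusted p 0.956) and was -0.26 without eel 11. Of its contigs, pmvk.1.2 had few reads in liver, between 4 and 41 in the control libraries, and a log2 fold change of 0.59 (SE 0.52), while pmvk.2.2 had 0.02 (SE 0.27).

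Isopentenyl diphosphate isomerase (idi1), which interconverts the building units of isoprenoids, was at 16.6, 25.8 and 43.4 CPM in control livers and at 17.8, 48.9 and 239 CPM in gold-fed livers. Livers 7, 8, 9 and 11 exceeded the highest control, and livers 10 and 12 lay among the controls. The log2 fold change was 1.499 (SE 0.55, adjusted p 0.504) and was 0.65 (SE 0.36) without eel 11.

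Squalene synthase (fdft1) joins farnesyl diphosphate molecules to squalene and so commits them to sterols. Its summed level was 11.3, 16.7 and 21.4 CPM in control livers and 17.5, 28.9 and 196 CPM in gold-fed livers. The same livers 7, 8, 9 and 11 exceeded every control, and all 6 gold-fed livers exceeded the control median. The log2 fold change of the sum was 1.70 (SE 0.56, adjusted p 0.449), with 1.52 for fdft1.1.2 and 1.90 for fdft1.2.2, and the sum was at 0.63 (SE 0.22, adjusted p 0.577) without eel 11.

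Lanosterol synthase (lss) closes the ring system of the sterol. It was at 2.19, 4.88 and 5.43 CPM in control livers and at 3.15, 7.89 and 42.9 CPM in gold-fed livers. Livers 7, 8, 9 and 11 again lay above all controls, with liver 8 at 17.7 CPM next to liver 11. The log2 fold change was 1.72 (SE 0.55, adjusted p 0.450) and was 0.96 (SE 0.39) without eel 11.

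The methylsterol monooxygenase msmo1 oxidises methyl groups that are removed from lanosterol on the way to cholesterol, and its range among livers was the widest of the 8 labels. It was at 9.66, 22.7 and 51.9 CPM in control livers and at 25.8, 55.6 and 523 CPM in gold-fed livers. Control livers 2, 3 and 4 were near 10 CPM and control livers 1, 5 and 6 were at 35.2 CPM or above, while all gold-fed livers exceeded the control median. The log2 fold change was 2.29 (SE 0.76, adjusted p 0.469) and was 1.01 (SE 0.50) without eel 11.

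The last 3 enzymes act on the double bonds of the sterol. The isomerase ebp, which shifts a double bond within the ring, was at 0.506, 1.09 and 1.82 CPM in control livers and at 0.781, 2.06 and 14.4 CPM in gold-fed livers. Livers 7, 8, 10 and 11 exceeded the controls, so this was the 1 label of the 6 with 4 such livers in which liver 10 stood in place of liver 9. Its log2 fold change was 1.77 (SE 0.63, adjusted p 0.490) and was 0.65 (SE 0.37) without eel 11.

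The desaturase sc5d, which puts a double bond into the ring, was at 27.2, 47.5 and 62.9 CPM in control livers and at 38.6, 69.8 and 145 CPM in gold-fed livers. Livers 7, 8, 9 and 11 exceeded the controls, and the log2 fold change was 0.71 (SE 0.30, adjusted p 0.556), or 0.41 (SE 0.25) without eel 11. The reductase dhcr7, which makes cholesterol from its dehydro precursor, was at 17.3, 27.4 and 39.4 CPM in control livers and at 16.4, 38.8 and 74.0 CPM in gold-fed livers. Livers 7, 8 and 11 exceeded the controls and liver 12 was below all of them, with a log2 fold change of 0.61 (SE 0.34, adjusted p 0.660), or 0.37 (SE 0.32) without eel 11. For every member the control and gold-fed livers overlapped.

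**Figure D1:**
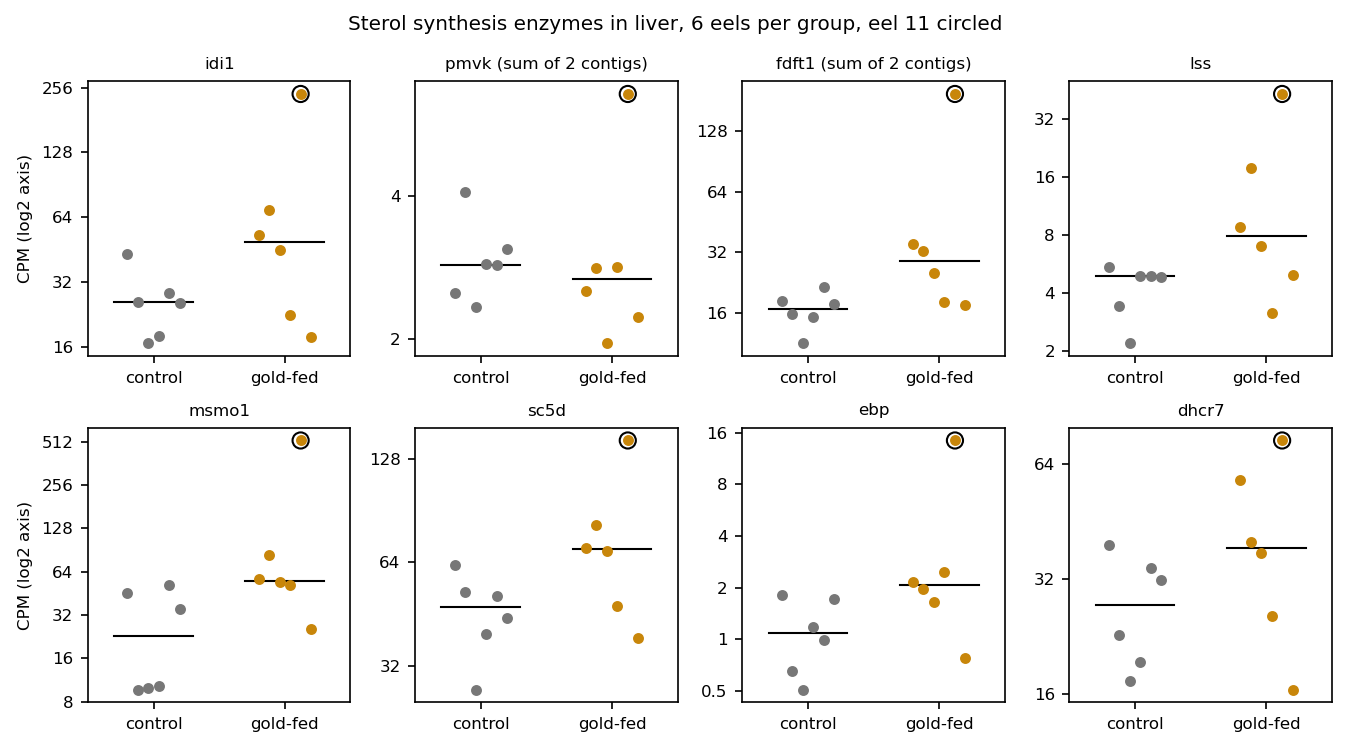
Level of each sterol enzyme in each liver, as TMM-scaled CPM on a log2 axis, with 6 control eels in grey, 6 gold-fed eels in orange, a line at each group median and eel 11 circled. The circled eel was the highest of the 12 livers in every panel, and in the panels of idi1, fdft1, lss, msmo1, sc5d and ebp 4 of 6 gold-fed livers lay above the highest control.

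Liver 11 exceeded the median of the other 5 gold-fed livers by 9.61 times for msmo1, 7.73 times for the fdft1 sum, 7.30 times for ebp, 6.11 times for lss and 5.33 times for idi1. The ratio was smaller for the pmvk sum (2.61), sc5d (2.10) and dhcr7 (1.97). Reads of the 10 contigs made up 0.126% of that library, against at most 0.0306% in any other liver. The other end of the range was control liver 3, which was among the lowest 3 of 12 for all 8 labels, and livers 7 and 8 were among the highest 3 for 7 and 6 labels.

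Marker sums were compared beside these levels. Liver 11 had the highest hepatocyte sum of the gold-fed livers, 64760 CPM against a control range of 36500 to 65650 CPM. It had the lowest erythrocyte sum of the gold-fed livers, 460.5 CPM against 1115 to 4283 CPM in controls. Erythrocyte contigs were lower in gold-fed livers for 17 of 17, with a median log2 fold change of -0.38, and for 15 of 17 without eel 11. None had an unadjusted p below 0.05 (edgeR). The median erythrocyte sum was instead higher in gold-fed livers, 1774 CPM against 1526 CPM in controls, where livers 1 and 6 had 2637 and 4283 CPM. Leukocyte contigs were lower in gold-fed livers for 17 of 20, with a median log2 fold change of -0.80. Of them, 10 were lower at an unadjusted p below 0.05 and 0 after adjustment (edgeR). Over all contigs tested, 1671 of 41793 were lower at that unadjusted p. Leukocyte sums ranged from 71.0 to 665 CPM in gold-fed and from 116 to 1325 CPM in control livers. Their medians were near each other, 217 CPM in gold-fed and 213 CPM in control livers, and control livers 2 and 6 were at 1208 and 1325 CPM. The part of these markers in the sterol enzyme levels was not tested.

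**Figure D2:**
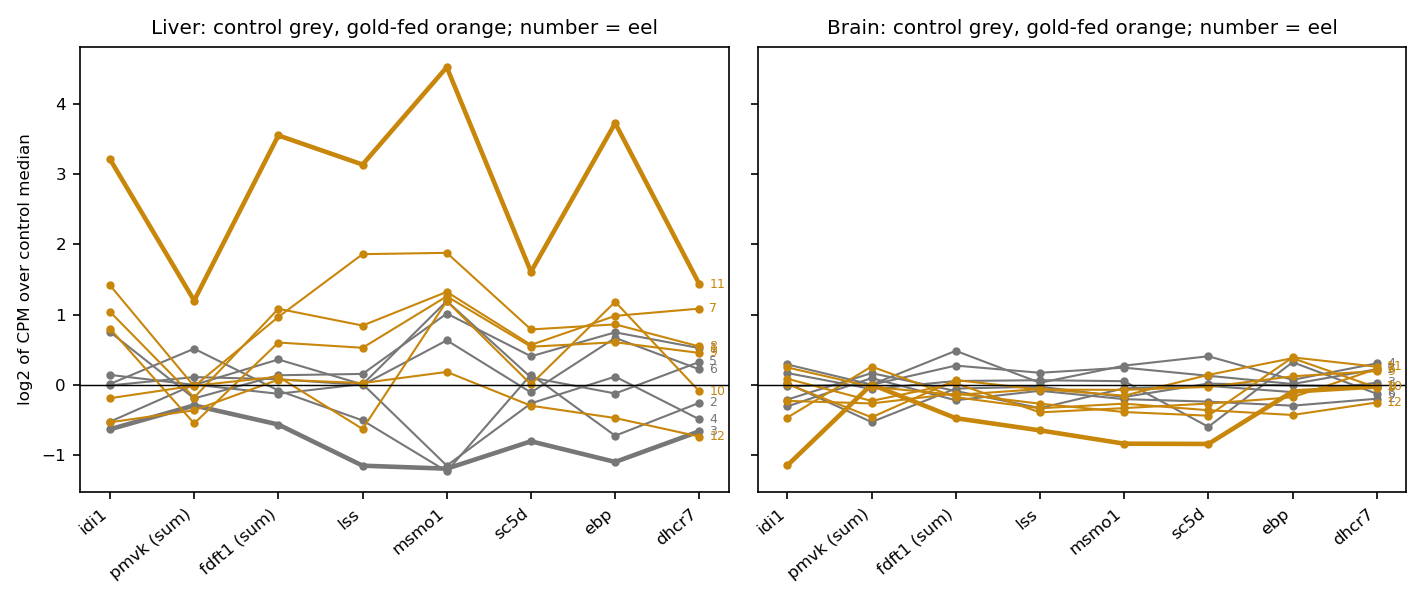
Each line is 1 eel and joins its level of the 8 labels, as the log2 ratio of its CPM to the control median of that tissue, with control eels in grey, gold-fed eels in orange and eel numbers at the right. Thick lines mark livers 11 and 3 and brain 10, and the line of liver 11 stays above those of all other livers. Brain lines cover a narrower range than liver lines, and that of brain 10 is the lowest for idi1, fdft1, lss, msmo1 and sc5d.

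In the brain, the same enzymes stood slightly lower in gold-fed eels for 8 of 10 contigs, with a median difference of -0.22 on the log2 scale. Over all contigs tested the median was 0.0002, and 50.04% were higher in gold-fed brains. No sterol contig passed after adjustment (edgeR), and 1 of 49830 contigs did (0.00201%). At an unadjusted p below 0.05 there were 3863 contigs in all. Of the sterol contigs, msmo1 and lss were lower at that level, 2 of 10 against 4.39% of all contigs. This count was 1 without any one of eels 1, 4, 5, 6, 7, 10, 11 and 12, and 3 without eel 9. DESeq2 called 178 contigs and limma-voom 1, none of them a sterol contig. The coefficient of variation within a brain group was 11.4% to 30.2% over the contigs and label sums, against 16.6% to 72.2% within control livers and 49.8% to 145% within gold-fed livers. The gold-fed liver values include eel 11. Without it, msmo1 was at 54.5 ± 20.5 CPM in gold-fed livers, against 27.1 ± 19.6 CPM in control livers (SD). For lss the levels were 8.32 ± 5.66 CPM and 4.29 ± 1.23 CPM.

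Brain msmo1 was at 28.1, 32.4 and 39.1 CPM in controls and at 18.1, 26.3 and 30.8 CPM in gold-fed eels. Brains 7, 10, 11 and 12 lay below the lowest control and none lay above the control median. The log2 fold change was -0.36 (SE 0.13, adjusted p 0.609). Brain lss was at 14.9, 18.8 and 21.2 CPM in controls and at 12.0, 15.2 and 18.01 CPM in gold-fed eels. Here 3 gold-fed brains lay below the lowest control and none above the control median, and the log2 fold change was -0.26 (SE 0.12, adjusted p 0.639). The number of members called at an unadjusted p below 0.05 was 0 when all 24 libraries shared 1 fit.

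The fdft1 sum was at 58.5, 68.2 and 95.3 CPM in control brains and at 49.0, 62.1 and 71.4 CPM in gold-fed brains, with a log2 fold change of -0.22 (SE 0.12, adjusted p 0.692). Brain sc5d was at 31.9, 48.4 and 64.1 CPM in controls and 26.9, 38.9 and 53.3 CPM in gold-fed eels, a log2 fold change of -0.25 (SE 0.18). Brain idi1 was at 54.2, 67.2 and 82.0 CPM in controls and 30.3, 62.5 and 79.7 CPM in gold-fed eels, a log2 fold change of -0.19 (SE 0.20). In all 3 the groups overlapped, and brain 10 was the lowest of the 12 brains.

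The remaining labels were close to level. The pmvk sum was at 15.1, 21.9 and 24.5 CPM in control and 15.9, 20.03 and 26.2 CPM in gold-fed brains, a log2 fold change of -0.07 (SE 0.14), with -0.29 (SE 0.17) for pmvk.1.2 and -0.02 (SE 0.17) for pmvk.2.2. Brain ebp was at 5.37, 6.61 and 8.26 CPM against 4.90, 6.68 and 8.66 CPM (0.05, SE 0.16). Brain dhcr7 was at 40.8, 46.9 and 57.9 CPM against 39.3, 49.8 and 56.0 CPM (0.03, SE 0.11). These groups overlapped over most of their range.

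Brain 10 had the lowest mean over the 8 labels of the 12 brains, and control brain 4 had the highest and led in 5 labels. Marker sums of brain 10 were the lowest of the gold-fed brains for astroglia (1991 CPM), oligodendrocytes (719.9 CPM), leukocytes (109.7 CPM) and erythrocytes (461.5 CPM). The corresponding control ranges were 2213 to 3179, 767 to 1444, 169 to 416 and 593 to 1446 CPM. Brain 10 instead had the highest sums of the gold-fed brains for hepatocytes (302.7 CPM) and for biliary and intestinal cells (253 CPM). Control brains ran from 154.3 to 987.8 and from 203.5 to 237.5 CPM. The neuron sum of brain 10 was 6541 CPM, with gold-fed brains from 5943 to 6580 CPM and control brains from 5900 to 6245 CPM. Across the gold-fed group 11 of 13 astroglial contigs were lower (median log2 fold change -0.16) and 19 of 20 leukocyte contigs were higher (0.44), none after adjustment with edgeR. The part of these markers in the brain levels was not tested.

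**Figure D3:**
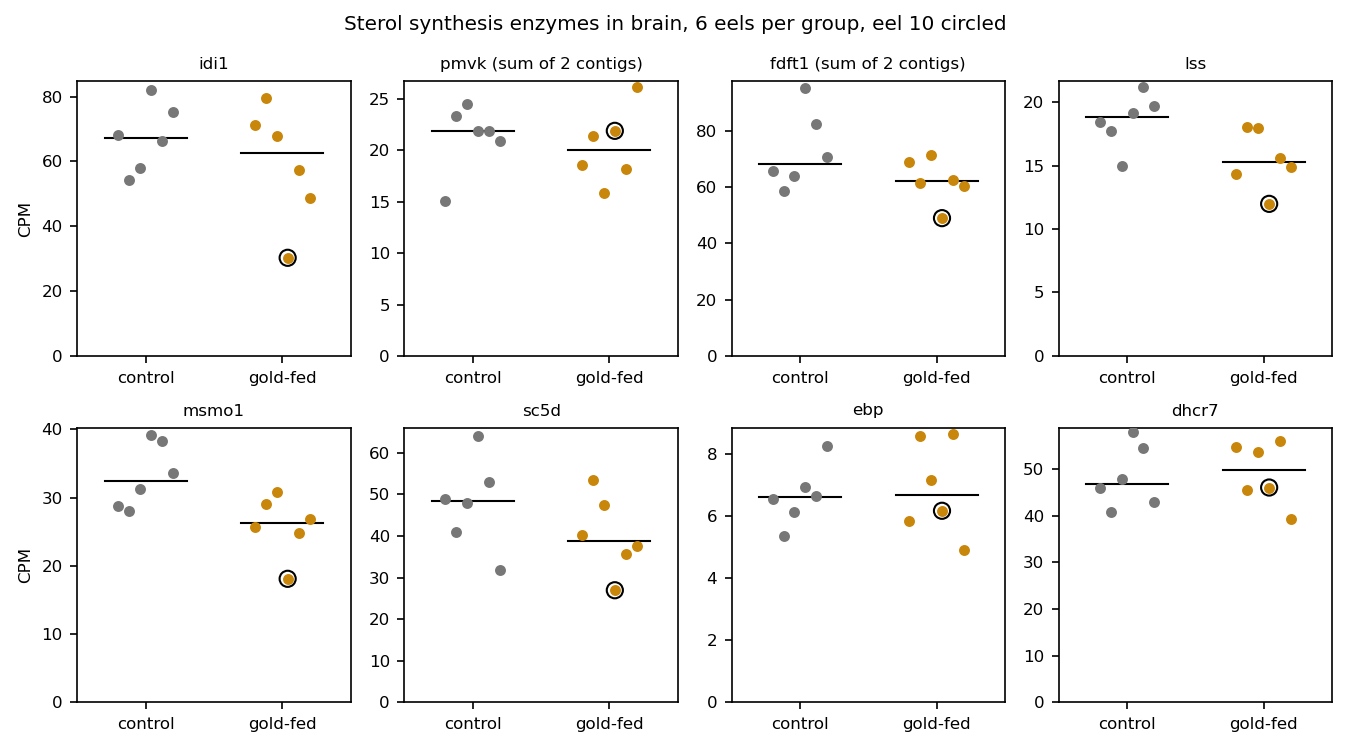
Level of each sterol enzyme in each brain, as TMM-scaled CPM on a linear axis from 0, with 6 control eels in grey, 6 gold-fed eels in orange, a line at each group median and eel 10 circled. Gold-fed brains sat lower for msmo1 and lss, where none exceeded the control median, and the groups overlapped in every panel.

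The gold response was higher in liver than in brain for all 10 contigs, by 1.67 on the log2 scale at the median, but no sterol contig passed the interaction test of the 24 libraries. That test called 3 of 50455 contigs after adjustment (edgeR, 0.00595%), with 3419 at an unadjusted p below 0.05, and DESeq2 called 136. Over all contigs tested, 50.03% had a positive difference, with a median of 0.00035. At an unadjusted p below 0.05, 7 of the 10 sterol contigs had a positive difference, against 3.27% of all contigs. The largest differences were 2.62 for msmo1 (SE 0.80, adjusted p 0.422), 2.13 for fdft1.2.2 (SE 0.64, adjusted p 0.405) and 1.95 for lss (SE 0.58, adjusted p 0.404). The others were 1.69 for ebp, 1.68 for fdft1.1.2, 1.66 for idi1, 0.93 for sc5d, 0.85 for pmvk.1.2, 0.55 for dhcr7 and 0.01 for pmvk.2.2. Without eel 11 the count was 4 of 10, against 2.84% of all contigs, and the median was 0.67, with pmvk.2.2 at -0.35. This comparison uses the same livers and brains as the comparisons within each tissue.

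**Figure D4:**
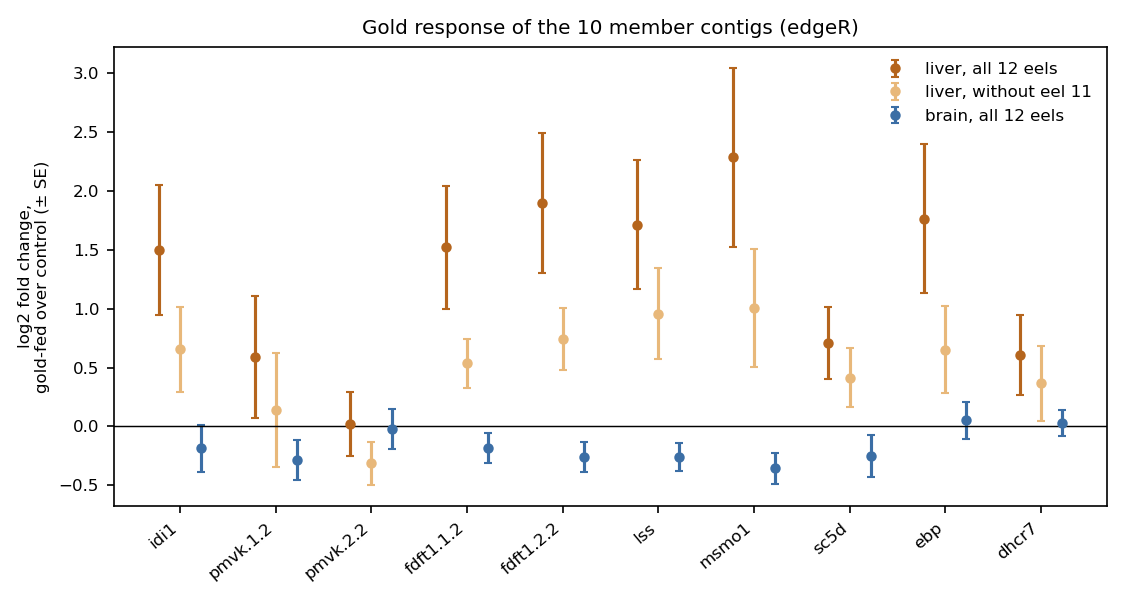
Log2 fold change of gold-fed over control eels for each of the 10 contigs (edgeR, bars ± SE), for liver with all 12 eels, liver without eel 11 and brain. Liver values for all eels ran from 0.02 for pmvk.2.2 to 2.29 for msmo1, values without eel 11 from -0.31 to 1.01, and brain values from -0.36 to 0.05.

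Between the tissues of control eels, sc5d, msmo1, dhcr7 and idi1 had the highest liver to brain ratios of the set and pmvk the lowest, and the sign for these 4 labels was positive with TMM factors and negative with library totals. TMM factors, which assume that most transcripts do not differ, were 1.99 to 2.17 in brain and 0.424 to 0.566 in liver when all libraries were scaled together. With library totals alone the median over all contigs moved by -2.15 (control eels) and -2.004 (gold-fed eels) on the log2 scale. In control eels with TMM factors 17381 contigs were called higher and 19963 lower in liver (75.1% of 49741), and with library totals 5410 higher and 38824 lower (88.9%). Among the sterol contigs 4 were higher and 2 lower in liver with TMM factors, and 0 higher and 8 lower with library totals.

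The desaturase sc5d had a log2 fold change, liver over brain, of 2.06 in control eels (SE 0.22, adjusted p 8.03e-07, edgeR with TMM factors), and of -0.10 with library totals (adjusted p 0.645). Its CPM without TMM factors was 45.0 ± 11.6 CPM in control livers and 48.1 ± 10.5 CPM in control brains (SD, n = 6). For msmo1 the values were 1.82 (SE 0.43, adjusted p 0.00158) with TMM factors and -0.35 with library totals. For dhcr7 they were 1.30 (SE 0.21) and -0.87, and for idi1 0.76 (SE 0.21) and -1.41. Both pmvk contigs were lower in liver under either scaling, by -1.31 and -0.65 with TMM factors and -3.50 and -2.81 with library totals, and they passed under both. The pmvk sum was at 2.87 ± 0.498 CPM in control livers and 21.5 ± 3.25 CPM in control brains without TMM factors. The other contigs, fdft1.1.2 (0.24), fdft1.2.2 (-0.28), lss (0.00) and ebp (-0.43), did not pass with TMM factors and were called lower in liver with library totals.

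In gold-fed eels 7 sterol contigs were higher and 1 lower in liver with TMM factors, and 2 were higher and 2 lower with library totals. The background was 73% of 49776 contigs with TMM factors, and 88% with library totals. The 2 contigs called higher under both scalings were msmo1, at 4.42 (SE 0.71, adjusted p 6.53e-05) with TMM factors and 2.38 with library totals, and sc5d, at 2.97 (SE 0.31) and 0.94. The contig called lower under both was pmvk.2.2, at -0.65 (adjusted p 0.0453) and -2.66. Its TMM call was lost without any one of eels 7, 8, 9, 10 and 12. Without eel 11 the TMM values were 3.13 for msmo1 and 2.65 for sc5d, and 7 contigs were higher and 2 lower. Since eels gave both tissues, the eel was also fitted as a block, which gave the pmvk sum an adjusted p of 0.0207 in gold-fed eels, against 0.0558 without it.

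**Figure D5:**
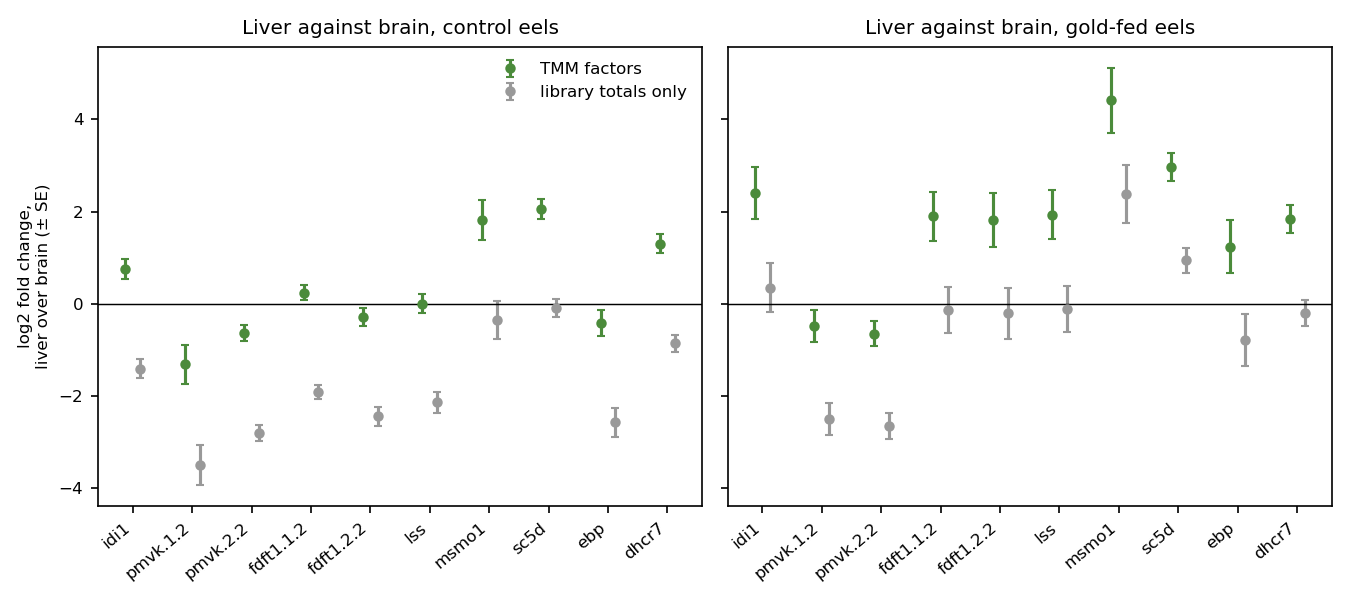
Log2 fold change of liver over brain for each of the 10 contigs in control eels (left) and gold-fed eels (right), with TMM factors in green and library totals alone in grey (edgeR, bars ± SE). All grey points lie below the green ones, and both pmvk contigs are below 0 under either scaling in both panels.

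The paired contigs of fdft1 and of pmvk were compared as shares of the reads of their label, a comparison added after the values were seen. The contig fdft1.2.2 took 54.0 ± 1.39% of the fdft1 reads in brain of control eels and 52.6 ± 0.775% in that of gold-fed eels (SD, n = 6). In liver its share was 44.5 ± 3.82% for control eels and 49.1 ± 2.75% for gold-fed eels. Control livers and control brains did not overlap, from 38.4% to 48.2% in liver and from 52.9% to 56.6% in brain. The difference was -9.57 percentage points (exact permutation test, two-sided, p 0.00216, the smallest that 924 arrangements can give; adjusted over 8 tests p 0.0173). All 6 control eels had the lower share in liver, but with livers and brains paired by eel the exact p was 0.0312, the smallest that 6 pairs can give, and the adjusted p was 0.0866. In gold-fed eels the liver to brain difference was -3.57 points, with overlapping groups and 5 of 6 eels lower in liver (exact p 0.013, adjusted p 0.0520, or 0.1 with eels paired). The gold-fed livers were 4.60 points above the control livers, with overlapping groups (exact p 0.0368, adjusted p 0.0866). A share does not depend on the scaling of a library. Shares of other labels with paired contigs were not tested, so it is unknown how often they separate liver from brain. For levels, 75.1% of 49741 contigs differed between the tissues of control eels after adjustment (edgeR, TMM factors). How reads common to both contigs were assigned was not recorded in the labels or headers.

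For pmvk the share of pmvk.1.2 was 17.1 ± 5.17% in brain of control eels and 14.7 ± 4.60% in that of gold-fed eels, and in liver it was 10.7 ± 5.79% and 15.04 ± 1.94%. None of its 4 comparisons passed, with adjusted p from 0.1004 to 0.905 in exact permutation tests, and all groups overlapped. All 6 control eels had the lower pmvk.1.2 share in liver, with an adjusted p of 0.0866 when paired by eel. The lowest control liver had a share of 1.96%, on 4 reads of pmvk.1.2.

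Levels of the enzymes varied together from liver to liver, apart from those of pmvk. Over the 12 livers the Pearson correlation of log2(CPM + 0.5) between labels had a median of 0.87 over 28 pairs (range 0.44 to 0.97), and Spearman's rho had a median of 0.79 (range -0.06 to 0.99). By permutation with adjustment over the 28 pairs, 21 passed with r and 20 with rho. Pairs of other contigs were not tested, so it is unknown how often they pass in these livers. The 7 pairs that did not pass with r were those of pmvk, and with rho the pair lss and ebp did not pass either (adjusted permutation p 0.0757). The median r was 0.71 within the control livers and 0.91 within the gold-fed livers. Without livers 11 and 3, the farthest from the median of the members' mean, 9 pairs passed and the median r was 0.64. All 9 were among idi1, fdft1, lss, sc5d and dhcr7. No pair of msmo1 or ebp passed then, with a lowest adjusted permutation p of 0.0524. The strongest of the 9 pairs was idi1 and sc5d, at 0.98 over 10 livers and 0.97 over 12, while pmvk's pairs lay between -0.51 and -0.20 over 10 livers.

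In the brain the pairs were looser, with a median r of 0.38 and a range of -0.44 to 0.88. By permutation 9 of 28 pairs passed with r and 0 with rho, and without brains 4 and 10 none passed. The highest r were those of fdft1 with msmo1 (0.88) and lss with msmo1 (0.87). Here too, pairs of other contigs were not tested. Labels of 1 library share its depth, and the values are descriptions of these 12 eels.

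The contigs most like the mean of the 8 labels were ranked by the lower of r over 12 libraries and r without the 2 farthest libraries, with no test. In liver, over the 10596 named contigs that averaged 1 CPM or more, they were mknk1 (0.85), a kinase that phosphorylates a translation initiation factor, bnip3.2.2 (0.84), acsl3b (0.83), which activates fatty acids, susd6.4.4 (0.83) and elvol5a (0.82). The sterol regulator srebf2.2.5 followed at place 6 (0.80), named here after its value was seen. The other contigs of this label differed, with 0.71 for srebf2.5.5, 0.66 for srebf2.3.5 and 0.02 for srebf2.4.5. The contig srebf2.1.5 (0.85) averaged below 1 CPM and was not ranked. In brain, over 14899 contigs, they were ndufs6.2.3 (0.77), a subunit of respiratory complex I, AT2A2.2.2 (0.77), a calcium pump of the endoplasmic reticulum, pgpep1.2.2 (0.76), dlc1.6.9 (0.76) and sys1.1.2 (0.75).

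Other genes of the sterol route are given here for tm7sf2, hsd17b7 and lbr, and no contig of these passed for the gold response after adjustment in either tissue (edgeR). The reductase tm7sf2, which acts on the sterol ring just before msmo1, had a log2 fold change of 1.92 in liver (SE 0.54, adjusted p 0.390). Its levels were between 1.01 and 3.65 CPM in control livers and between 3.18 and 25.3 CPM in gold-fed livers, so the groups overlapped. Eel 11 was the highest, and the log2 fold change was 1.09 without it. The liver values of hsd17b7, an enzyme of the same part of the route, and of lbr, a ring reductase like tm7sf2, were 0.89 and -0.08. In brain the log2 fold changes were -0.10 for tm7sf2, 0.02 for hsd17b7 and -0.17 for lbr.

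Regulators and uptake genes of sterols matched 32 contigs. Contigs of 1 gene were counted singly here as well, srebf2.1.5 to srebf2.5.5 among them. In liver 22 of 31 tested were higher and 9 lower, with a median log2 fold change of 0.39. At an unadjusted p below 0.05 (edgeR), 6 were higher, where 4.41% of all contigs were, and 0 after adjustment. Without eel 11, 25 of 32 were higher, with a median of 0.28. Again 6 were higher at that unadjusted p, where 3.89% of all contigs were. The values of srebf2.5.5 and srebf2.2.5, contigs of the SREBP2 gene, were 1.22 and 1.39, or 0.89 and 0.72 without eel 11. In brain 12 were higher and 20 lower, with a median of -0.11, and 2 were higher and 7 lower at an unadjusted p below 0.05, where 3.37% and 4.39% of all contigs were. Without eel 11 the numbers were 2 and 4. The smallest p values in brain (edgeR) were those of nr1h3, a nuclear receptor that senses sterols, and of npc1l1.4.4, of a sterol uptake protein. The level of nr1h3 was 59.2 ± 3.09 CPM in control brains against 68.0 ± 3.64 CPM after gold feeding (SD, n = 6). Its log2 fold change was 0.20 (adjusted p 0.579). That of npc1l1.4.4 was -1.27 (adjusted p 0.587), with overlapping groups. Its level was 373 ± 275 CPM in control brains, from 185 to 813 CPM. In gold-fed brains it was 155 ± 36.2 CPM, from 116 to 207 CPM. The other contigs of this label were higher in gold-fed brains. Their log2 fold changes were 0.14 for npc1l1.1.4, 0.65 for npc1l1.2.4 and 0.57 for npc1l1.3.4. Enzymes that lead isoprenoids away from sterols, such as coq2 of ubiquinone synthesis (-0.30) and ggps1 (-0.32), were lower in liver for 8 of 8 contigs, with a median of -0.18 and none at an unadjusted p below 0.05, and 7 of 8 were lower with library totals and 6 of 8 without eel 11. In brain 6 of 8 of them were higher, with a median of 0.04. Enzymes that modify finished sterols were lower in liver for 6 of 8 contigs (median -0.03, and 3 of 8 were lower with library totals), with CH25H, a cholesterol hydroxylase, at -1.77 (adjusted p 0.201). The level of CH25H was low, at 0.842 ± 0.241 CPM in control livers and 0.246 ± 0.0893 CPM in gold-fed livers (SD, n = 6). In liver, contigs of fatty acid synthesis were higher for 7 of 13 (median 0.07). At an unadjusted p below 0.05 (edgeR), 4 of the 13 were higher and 0 lower, where 4.41% of all contigs were higher. Without eel 11 it was 1 higher and 0 lower, where 3.89% of all contigs were higher. Contigs of 1 gene were counted singly, fads2.1.3, fads2.2.3 and fads2.3.3 among them. The median sum of the fatty acid synthesis contigs was instead lower in gold-fed livers, 12730 CPM against 22500 CPM in controls. These sums overlapped, from 4777 to 26080 CPM in gold-fed and from 4328 to 32910 CPM in control livers. Most of each sum came from contigs of thrsp, so it says little about the other contigs. Gold-fed livers averaged 10030 CPM for thrsp.2.2 and 1476 CPM for thrsp.1.2, against control means of 15350 and 2586 CPM, with overlapping ranges. By contrast, slc25a1b ranged from 112 to 144 CPM after gold feeding, above its control range of 59.3 to 94.6 CPM. None of the 13 passed after adjustment (edgeR). Contigs of sterol carriers and membrane proteins of the endoplasmic reticulum were higher for 8 of 16 (median 0.00), or for 12 of 16 with library totals.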

How the data were processed

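Per the labels' protocols, the SV Total RNA kit served for extraction and TruSeq RNA v2 for libraries. The authors deposited raw read counts per contig for 24 libraries, and BWA 0.7.12 and SAMtools 1.1 were used, per the submitters' processing notes. Not given in the sources used here are the assembly, annotation, counting rule, strandedness and filters. All columns matched a sample (0 without one), and no libraries of a group agreed within sampling noise (lowest chi-square per degree of freedom 66.7).

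The counts were tested with edgeR 4.0.16 in R 4.3.3 (quasi-likelihood F test, two-sided, TMM factors, filterByExpr) over all contigs, and again after summing contigs by label, adjusted by Benjamini-Hochberg (threshold 0.05). Standard errors were derived from the F statistic. The 12 libraries of a comparison were fitted without covariates, and the interaction used all 24. Sets, member names, gene lists and tests were chosen with earlier results of these data known. Correlations used log2(CPM + 0.5) with 100000 permutations. The script was tested on simulated data. For the gold response in liver, 9 of 100 contigs changed 2-fold and 72 of 100 changed 4-fold were called, with 6 false calls. Most 2-fold changes were thus missed. Liver and brain of 1 eel are paired per the labels: their deviations from group means correlated at 0.398 to 0.611 over 24808 contigs, and each eel matched its own other tissue best in 12 of 12 cases. Between tissues the eel was therefore also fitted as a replicate block. Alternatives were DESeq2 1.42.0, limma-voom (limma 3.58.1), library totals, other count filters, all 24 libraries in 1 fit and leaving out each eel. Shares of paired contigs were added after the data were seen.

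Named genes were, by rule, all member contigs, up to 4 other pathway contigs of smallest p per direction (some are not reported here), up to 2 of smallest p of other lists, and the 5 contigs most like the members. Of the 8 member labels, 7 equalled a symbol of the RefSeq gene table (assembly fAngAng1.pri), and no coordinates or sequences were used.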

Additional observations from a re-analysis of the deposited data

Results flagged for a closer look

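Within each group of 6, the highest and the lowest library were set against the others for 10 contigs and 2 label sums. In 11 of 48 sets of 6 values the gap to the nearest library exceeded the 95% critical value of Dixon's test. Chance flags about 1 in 20 such sets, and sets of 1 animal are not independent. Liver 11 of the gold-fed group was the animal in 10 of the 11.

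Its levels were 523 CPM for msmo1, 239 CPM for idi1, 196 CPM for the fdft1 sum, 91.3 CPM for fdft1.1.2, 104 CPM for fdft1.2.2, 42.9 CPM for lss and 14.4 CPM for ebp. For pmvk they were 6.58 CPM for the sum, 1.16 CPM for pmvk.1.2 and 5.42 CPM for pmvk.2.2. The same liver was also the highest for sc5d and dhcr7, without a gap of that size. In control brain, eel 1 had the lowest pmvk.2.2, at 11.2 CPM.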

How the results depend on the processing

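Leaving out eel 11 moved the liver response most, as given above. The number of contigs called for the gold response was 289 in liver, 178 in brain and 136 for the difference between tissues with DESeq2, and 229 in liver with all 24 libraries in 1 fit. No sterol contig was among those counts. Sterol contigs at an unadjusted p below 0.05 were 4 in liver with limma-voom and 0 in brain with all 24 libraries. Without 1 eel at a time the counts over all contigs ranged from 0 to 3 in liver, 1 to 4 in brain and 0 to 6 for the difference, and those of sterol contigs at an unadjusted p below 0.05 from 3 to 8, 1 to 3 and 4 to 7. Correlated pairs without the 2 farthest libraries were 9 in liver and 0 in brain.

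With library totals, 4 sterol contigs passed between tissues in gold-fed eels, and log2 fold changes reversed in control eels for dhcr7 (-0.87), fdft1.1.2 (-1.92), idi1 (-1.41), lss (-2.15), msmo1 (-0.35) and sc5d (-0.10). In gold-fed eels they reversed for dhcr7 (-0.20), ebp (-0.79), fdft1.1.2 (-0.14), fdft1.2.2 (-0.21), lss (-0.12) and the fdft1 sum (-0.18), and brain dhcr7 was at -0.00051. Values near 0 changed sign: pmvk.2.2 in liver was -0.0706 with limma-voom, and lss between tissues of control eels was -0.0545 with DESeq2, -0.00452 without a count filter and -0.0479 with the replicate block. The replicate block gave pmvk.2.2 a difference of -0.0916 between tissue responses and called 1 contig for that difference. It changed no call of a sterol contig beyond the pmvk sum given above. The fdft1 share of control eels, also given above, lost its call in a separate permutation test with eels paired. The cause of these changes was not tested.

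Without 1 eel at a time, liver responses ranged from -0.31 to 0.12 for pmvk.2.2 and -0.26 to 0.21 for the pmvk sum, and brain responses from -0.0191 to 0.0892 for dhcr7, -0.0252 to 0.13 for ebp and -0.13 to 0.0599 for pmvk.2.2. Their difference ranged from -0.35 to 0.20 for pmvk.2.2 and -0.26 to 0.30 for the pmvk sum. Between tissues of control eels lss ranged from -0.0771 to 0.0810 and the fdft1 sum from -0.0621 to 0.0614.

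Depth limited the low members in liver most, where pmvk.1.2 had 4 to 82 reads in a library, ebp had as few as 36 and pmvk.2.2 as few as 84.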
